A study of Mus musculus with 6 samples.

Results

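The imprinted growth network is a group of genes that are transcribed mainly from the maternal or the paternal chromosome, act on fetal and early postnatal growth and are known to be turned down in many tissues after birth. Paternally expressed members such as Igf2 mostly promote growth, and maternally expressed members such as Cdkn1c and Igf2r mostly restrain it. Several of them lie together in domains in which 1 methylated control region sets the expression of neighbouring coding and non-coding genes. Here 10 members, H19, Igf2, Dlk1, Meg3, Peg3, Plagl1, Cdkn1c, Grb10, Mest and Igf2r, were followed in RPE/choroid, the retinal pigment epithelium together with the vascular bed beneath it. They were found by symbol among the 33924 genes of the table, and 10 of 10 were present and had an adjusted p.

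The members were chosen from the imprinted genes with their change between young and aged mice already known, so their values below describe these samples and test nothing. RNA came from C57BL/6J mice with no genetic change or treatment, in a young group of 3 samples (1 to 2 months by the labels) and an aged group of 3 samples (20 to 24 months by the titles, with 22 months as the lower limit in the time label). Each of the 6 samples is labelled male and was made from a pair of eyes, whereas the study's methods mention females too and an older young group. Ribosomal RNA was depleted and a stranded library was made from the remaining total RNA, which the study chose in order to read histone mRNAs that lack a poly(A) tail, and which also keeps non-coding RNAs without one.

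The file analysed gives for each gene 1 mean over all libraries (base mean, in normalized counts), 1 log2 fold change, the standard error (SE) of that change and 1 adjusted p, all from the authors' DESeq2 comparison. It has 0 columns of values per library, so no value per mouse, no SD and no library depth can be given, and the SE is the only measure of replicate error. Fold changes are written as aged over young, so that a negative value is a lower level in aged mice. This direction rests on the numbers of higher and lower genes stated in the study, since the file does not name it. A gene is called lower or higher where its adjusted p is under 0.05, and 95% intervals were computed from the SE. The mean of each age group was worked out from the base mean and the fold change. The SEs of rare genes have the pattern of shrunken fold changes, in which case differences, group means and percentages of the young level understate the change.

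Of the 10 members, 8 were lower in aged mice, 1 (Igf2r) was higher and 1 (Dlk1) was not called. Among all 18636 genes tested, 21.2% were called in either direction, 9.92% were lower and 11.3% were higher. Log2 fold changes of the members ran from -3.23 for H19 to 0.40 for Igf2r, with a median of -1.14, and the median over all genes tested was -0.01. A log2 fold change of -1 or below together with a call was reached by 6 members, against 4.62% of all genes tested. The SE of the members lay between 0.12 and 0.32 with a median of 0.16, and tested genes with a base mean from 500 to 6000 had a median SE of 0.14.

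**Figure D1:**
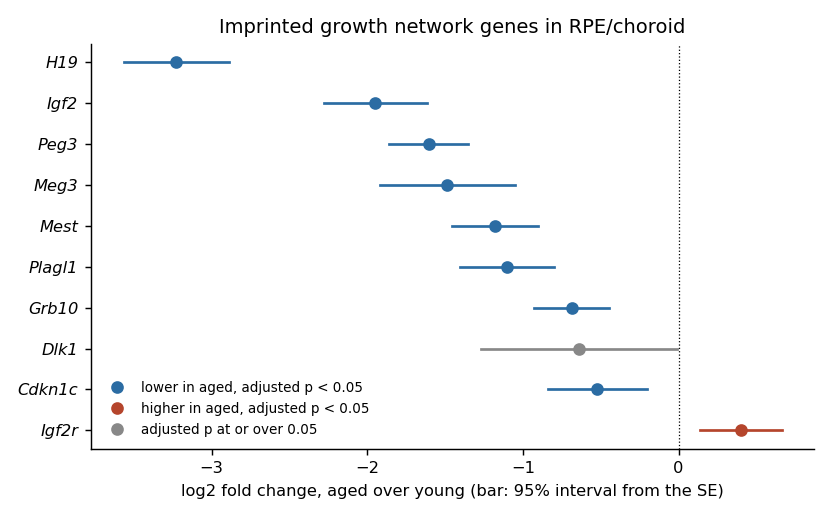
Log2 fold change of the 10 members, aged over young, from the deposited table (3 young and 3 aged samples), with bars for the 95% interval computed from the SE. H19 stands apart at -3.23, 8 members are lower in aged mice, the interval of Dlk1 ends close to 0, and Igf2r lies on the other side of 0 at 0.40.

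In order of fold change from the strongest fall, the members were H19, Igf2, Peg3, Meg3, Mest, Plagl1, Grb10, Dlk1, Cdkn1c and Igf2r. Between neighbours in this order, the 95% intervals did not overlap for H19 and Igf2 or for Cdkn1c and Igf2r, and they overlapped for each of the other pairs. The differences between neighbouring members were not tested, and overlapping intervals do not show that members fell alike. Summed over the 10 members, the group means fell from 22971 normalized counts in young to 12980 in aged mice, or 56.5% of the young sum. Igf2r held much of what was left, since the sum without it went from 18336 to 6865, or 37.4% of the young sum.

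**Figure D2:**
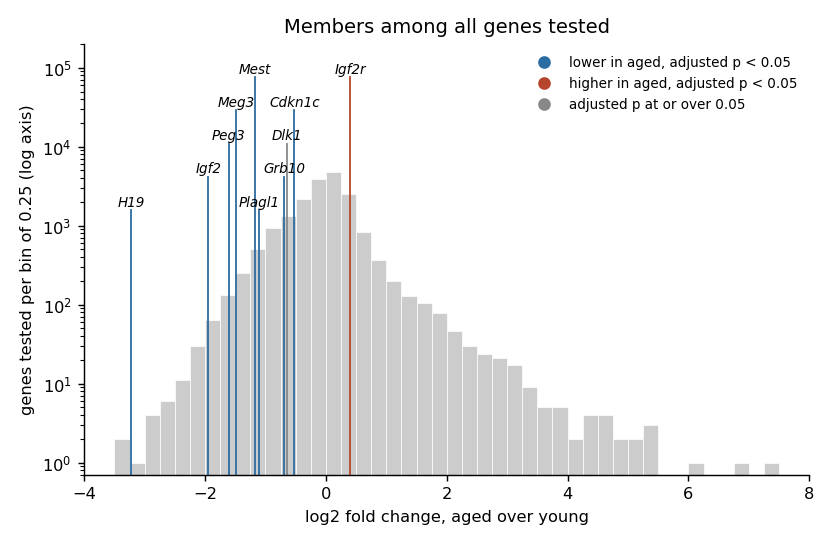
Histogram of the log2 fold changes of all 18636 genes tested in bins of 0.25, on a log axis of gene number, with a vertical line at the value of each member (line heights only separate the names). H19 lies among the few genes at the left end, and most members lie left of the bulk of genes around 0.

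Before the single genes, 3 mature microRNAs show what the transcripts of H19 and Mest can carry. Both arms of miR-675 lie within H19 and miR-335-5p within Mest, and the sequences below are those of RefSeq (GRCm38.p6), with the seed, bases 2 to 8, in capitals.
miR-675-5p: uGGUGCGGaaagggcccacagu
miR-675-3p: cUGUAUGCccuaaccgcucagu
miR-335-5p: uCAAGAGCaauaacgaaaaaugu
The 3 seeds differ from each other. The row of Mir675 was listed at 0, although its host H19 had a base mean of 2009, and Mir335 had a base mean of 9.59 with a log2 fold change of -0.71 with an SE of 0.45 (adjusted p 0.268). A library of long RNA fragments reads these rows poorly, and nothing is drawn from them about the mature microRNAs.

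H19 is a long non-coding RNA, expressed from the maternal chromosome and abundant in the fetus, that shares its enhancers and its control region with Igf2. It lies on chromosome 7 at 142575529 to 142578143 (GRCm38, minus strand). Its mean was 3631 normalized counts in young mice and 388 in aged mice, which left 10.7% of the young level (95% interval 8.45% to 13.5%). The log2 fold change of H19 was -3.23 (SE 0.17), with a deposited adjusted p of 2.29e-75. This was the third largest fall among the 18636 genes tested. H19 shares few of its words of 31 bases with other genes, with a share of 0.947 found in no other gene.

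Igf2, insulin-like growth factor 2, is the paternally expressed fetal growth factor of the same domain and lies 72.6 kb from H19 at 142650766 to 142666816 on chromosome 7. Its mean went from 1588 normalized counts in young mice to 412 in aged mice, or 25.9% of the young level (95% interval 20.6% to 32.7%). With a log2 fold change of -1.95 with an SE of 0.17 (adjusted p 2.73e-28), Igf2 held rank 65 among the falls. Of the words of 31 bases in Igf2, a share of 0.369 is found in no other gene of the GENCODE M21 annotation. The rest is shared mainly with Gm49394, an annotated gene on the same strand that overlaps most of Igf2, and with the opposite-strand Igf2os, and neither symbol is in the table.

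Meg3 and Dlk1 belong to the domain on chromosome 12. Meg3 is a maternally expressed long non-coding RNA at 109541001 to 109571726 (plus strand). Its mean was 1581 normalized counts in young and 564 in aged mice, or 35.7% of the young level (95% interval 26.4% to 48.3%), and its log2 fold change was -1.49 (SE 0.22, adjusted p 8.33e-10). Dlk1, a paternally expressed transmembrane protein of the Notch ligand family that holds back adipocyte differentiation, lies 77.7 kb away at 109452823 to 109463336. It was the least abundant member, with a mean of 68.0 normalized counts in young and 43.7 in aged mice. Its log2 fold change of -0.64 had the widest SE of the members, 0.32, and an adjusted p of 0.148. The 95% interval of Dlk1 ran from 41.5% to 99.5% of the young level, which includes the 46.5% of Plagl1 and leaves out the 35.7% of Meg3. The intervals of Dlk1 and Meg3 overlap, and a difference between these genes was not tested.

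Peg3 and Plagl1 encode zinc finger proteins expressed from the paternal chromosome, and Plagl1 is known as an activator of other genes of the network. Peg3, on chromosome 7 at 6703892 to 6730431 (minus strand), had a mean of 5008 normalized counts in young and 1646 in aged mice. It was thus left at 32.9% of the young level (95% interval 27.6% to 39.2%), with a log2 fold change of -1.61 with an SE of 0.13 (adjusted p 8.37e-33). Plagl1, on chromosome 10 at 13060504 to 13131694 (plus strand), went from 978 to 455 normalized counts, or 46.5% of the young level (95% interval 37.7% to 57.4%). Its log2 fold change was -1.10 (SE 0.15, adjusted p 3.94e-11), and the intervals of both zinc finger genes overlapped between -1.41 and -1.35.

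Mest, a paternally expressed gene of the alpha/beta hydrolase family that is abundant in embryonic mesoderm, lies on chromosome 6 at 30723547 to 30748465 (plus strand). Its mean of 1005 normalized counts in young mice compared with 443 in aged mice, or 44.1% of the young level (95% interval 36.4% to 53.4%). The log2 fold change was -1.18 (SE 0.14, adjusted p 3.34e-15). Copg2, which overlaps the end of Mest on the opposite strand, had a log2 fold change of -0.06 with an SE of 0.14 (adjusted p 0.800). For Mest, the share of words found in no other gene is 0.780, and whether the authors' counting used the strand is not given in the sources used here, so some reads of this stretch could be assigned to either gene.

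Grb10, Cdkn1c and Igf2r, which are expressed from the maternal chromosome in most tissues, restrain growth and had the smallest fold changes of the called members. Grb10, an adaptor protein that dampens signalling of the insulin and IGF1 receptors, lies on chromosome 11 at 11930508 to 12038683. It went from 2742 normalized counts in young to 1704 in aged mice, or 62.2% of the young level (95% interval 52.5% to 73.5%), with a log2 fold change of -0.69 with an SE of 0.12 (adjusted p 7.49e-07). Cdkn1c, which encodes the cyclin-dependent kinase inhibitor p57, lies on chromosome 7 at 143458339 to 143461050. Its mean was 1735 normalized counts in young and 1208 in aged mice, or 69.7% of the young level (95% interval 55.9% to 86.8%), with a log2 fold change of -0.52 with an SE of 0.16 (adjusted p 0.00968).

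Igf2r, the receptor that clears Igf2 from the cell surface and carries lysosomal enzymes, was the member that was higher in aged mice. It lies on chromosome 17 at 12682406 to 12769664 (minus strand). Its mean rose from 4635 to 6115 normalized counts, or 132% of the young level (95% interval 110% to 158%), with a log2 fold change of 0.40 with an SE of 0.13 (adjusted p 0.0181). This call was lost after subtracting the median fold change of abundant genes, 0.06, where Igf2r had 0.34 and an adjusted p of 0.0556. It was also lost at an adjusted p under 0.01. Igf2r thus differed in direction from its ligand Igf2, at 0.40 against -1.95.

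**Figure D3:**
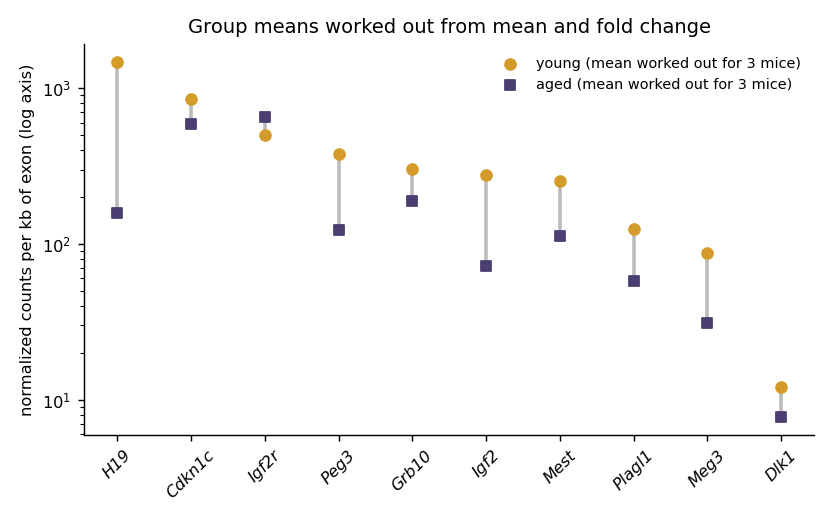
Mean level of each member in the 3 young (circles) and 3 aged samples (squares), worked out from the base mean and the fold change of the deposited table and divided by exon length, on a log axis of normalized counts per kb. On this scale H19 is the highest in young mice and Igf2r the highest in aged mice.

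Levels of different genes were compared per kb of exon, with exon lengths from GENCODE M21, which is not the annotation the authors used. In young mice, H19 was the most abundant member at 1476 normalized counts per kb, followed by Cdkn1c at 851 and Igf2r at 498. In aged mice, Igf2r led at 657 normalized counts per kb, with Cdkn1c at 593, while H19 stood at 158, below Grb10 at 188. Dlk1 was the lowest at both ages, at 12.0 and 7.72 normalized counts per kb. Without the division by length, the young means put Peg3 (5008) and Igf2r (4635) above H19 (3631), and the study's methods derive normalized counts from TPM, a measure that is already divided by transcript length, so length may have been corrected for before deposit and the order between genes is uncertain. Across the 11124 protein-coding genes with a base mean of at least 100, the base mean rose with exon length (Spearman's rho 0.273, a description across genes, which are not independent replicates), so longer genes tended to have higher values in the table. These levels have no error, since the table gives none for the base mean, so the order is a description.

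Promoters of the members were read from RefSeq because imprinted control regions are rich in CpG, the dinucleotide that is methylated in mammals. Each promoter is a window of 300 bases around a transcription start, and 8 of the 10 members matched, with 15 promoters in all. H19 and Cdkn1c had none. Shown are those of Peg3, Mest and Plagl1, which are paternally expressed and were lower in aged mice, and that of Igf2r, the member that was higher. They are written 5′ to 3′ along the gene (GRCm38.p6), with each CpG in capitals.
Peg3, chr7:6730370-6730669, minus strand: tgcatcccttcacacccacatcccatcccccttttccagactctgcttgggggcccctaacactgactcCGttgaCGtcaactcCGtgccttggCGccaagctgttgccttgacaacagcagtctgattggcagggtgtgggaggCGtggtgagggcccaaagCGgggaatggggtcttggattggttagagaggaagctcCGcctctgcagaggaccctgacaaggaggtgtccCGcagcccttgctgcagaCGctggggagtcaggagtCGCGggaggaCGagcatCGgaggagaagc
Mest, chr6:30737800-30738099, plus strand: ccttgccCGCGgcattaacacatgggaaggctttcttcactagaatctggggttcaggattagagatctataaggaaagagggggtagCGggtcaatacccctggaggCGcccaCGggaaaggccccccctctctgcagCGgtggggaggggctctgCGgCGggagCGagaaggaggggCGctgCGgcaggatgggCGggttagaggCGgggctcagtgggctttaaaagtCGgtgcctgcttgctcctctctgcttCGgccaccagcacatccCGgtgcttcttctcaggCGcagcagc
Plagl1, chr10:13090582-13090881, plus strand: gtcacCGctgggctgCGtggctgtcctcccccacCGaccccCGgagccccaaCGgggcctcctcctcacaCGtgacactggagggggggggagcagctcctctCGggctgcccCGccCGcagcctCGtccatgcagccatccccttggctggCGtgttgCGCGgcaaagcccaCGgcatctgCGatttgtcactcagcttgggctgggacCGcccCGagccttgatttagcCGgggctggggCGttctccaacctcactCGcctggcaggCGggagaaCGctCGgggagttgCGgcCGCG
Igf2r, chr17:12769657-12769956, minus strand: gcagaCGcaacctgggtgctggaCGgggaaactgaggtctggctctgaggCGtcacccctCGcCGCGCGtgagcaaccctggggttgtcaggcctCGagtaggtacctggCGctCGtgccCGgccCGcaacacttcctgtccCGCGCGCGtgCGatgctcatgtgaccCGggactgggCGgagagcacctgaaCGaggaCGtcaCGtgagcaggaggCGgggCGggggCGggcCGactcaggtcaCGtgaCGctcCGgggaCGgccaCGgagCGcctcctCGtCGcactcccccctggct
The windows hold 13 CpG in Peg3, 17 in Mest, 26 in Plagl1 and 34 in Igf2r. Mest has 3 windows in the table, of which a second, nearly the same, also holds 17 CpG and the one that starts at 30733256 holds 8. Among the 32851 promoters of the table the median was 7 CpG, with quartiles of 3 and 20, and the 15 promoters of members had a median of 13 and ranged from 1 in a Meg3 promoter to 45 in a Grb10 promoter. More than the median of 7 was found in 12 of the 15, which are not independent, since Igf2, Mest, Grb10 and Meg3 have more than 1 window each. The number of CpG does not separate Igf2r from the members that were lower, as the Grb10 window with 45 has more than that of Igf2r. No methylation was measured in these samples.

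The letters of 3 motifs were searched on both strands of each window. GGGCGG, the core of a GC box, was in 8 of the 15 member promoters, which belong to Grb10, Igf2, Igf2r, Mest and Plagl1, and in 35.7% of all promoters. TATAAA was in 1 of the 15, a Meg3 promoter, and in 13.6% of all promoters. GGGGCCCC, a palindrome, was in 1 of the 15, the Peg3 promoter, and in 1.08% of all promoters. These matches are letters in a window and show no binding.

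The other imprinted genes of the same domains were compared to see whether a domain moved together. In the domain of Dlk1 and Meg3, 6 further genes were tested and 4 were lower in aged mice. Rtl1, a paternally expressed gene derived from a retrotransposon, had a log2 fold change of -2.09 with an SE of 0.26 (adjusted p 6.12e-14). Rian, the maternally expressed host of small nucleolar RNAs, had -2.05 (SE 0.18, adjusted p 4.79e-29) and fell from 2390 to 576 normalized counts. Mirg, the maternally expressed microRNA host, had -1.95 (SE 0.27, adjusted p 3.69e-11), and Dio3, the deiodinase that inactivates thyroid hormone, had -1.55 (SE 0.40, adjusted p 0.00111). Dio3os, at -0.87 (adjusted p 0.0817), and Begain, at 0.13 (adjusted p 0.861), were not called. The called genes of this domain include both genes known as paternally expressed and genes known as maternally expressed. Rtl1, Mirg and Dio3 had low base means of 95.1, 82.1 and 35.5. Rtl1 lies on the minus strand between Meg3 and Rian, which are on the plus strand. With the use of strand in counting not given, the reads of Rtl1 cannot be assigned to a parental chromosome for certain.

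In the Peg3 domain, Zim1, a maternally expressed zinc finger gene that lies 7.4 kb from Peg3, had a log2 fold change of -2.16 with an SE of 0.25 (adjusted p 1.46e-16). Usp29, which starts 0.1 kb from Peg3 in the other direction, had -0.12 (SE 0.34, adjusted p 0.845). In the Igf2r domain, Airn, the paternally expressed antisense transcript that silences the paternal Igf2r copy, had -1.04 (SE 0.23, adjusted p 0.000125) and a base mean of 127. Airn overlaps Igf2r on the opposite strand, and with the use of strand in counting not given, reads from the overlap cannot be told apart for certain. Airn thus differed in direction from Igf2r, at -1.04 against 0.40, and Slc22a2 had 0.45 (adjusted p 0.489).

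Of 9 further genes tested in the H19 and Cdkn1c domains, 0 were lower and 1, Slc22a18, was higher by DESeq2, with a log2 fold change of 0.56 with an SE of 0.19 (adjusted p 0.0214). Ins2, the insulin gene next to Igf2, had -0.81 (SE 0.34, adjusted p 0.0757), and Kcnq1, beside Cdkn1c, had -0.35 (adjusted p 0.184). At an unadjusted p under 0.05, 1 of the 9 genes (Ins2) was lower and 2 were higher. Next to Grb10, Ddc was higher (0.64, SE 0.21, adjusted p 0.0143) and Cobl had -0.53 (adjusted p 0.121). Phactr2, the other gene listed for the Plagl1 domain, had 0.19 (adjusted p 0.293).

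**Figure D4:**
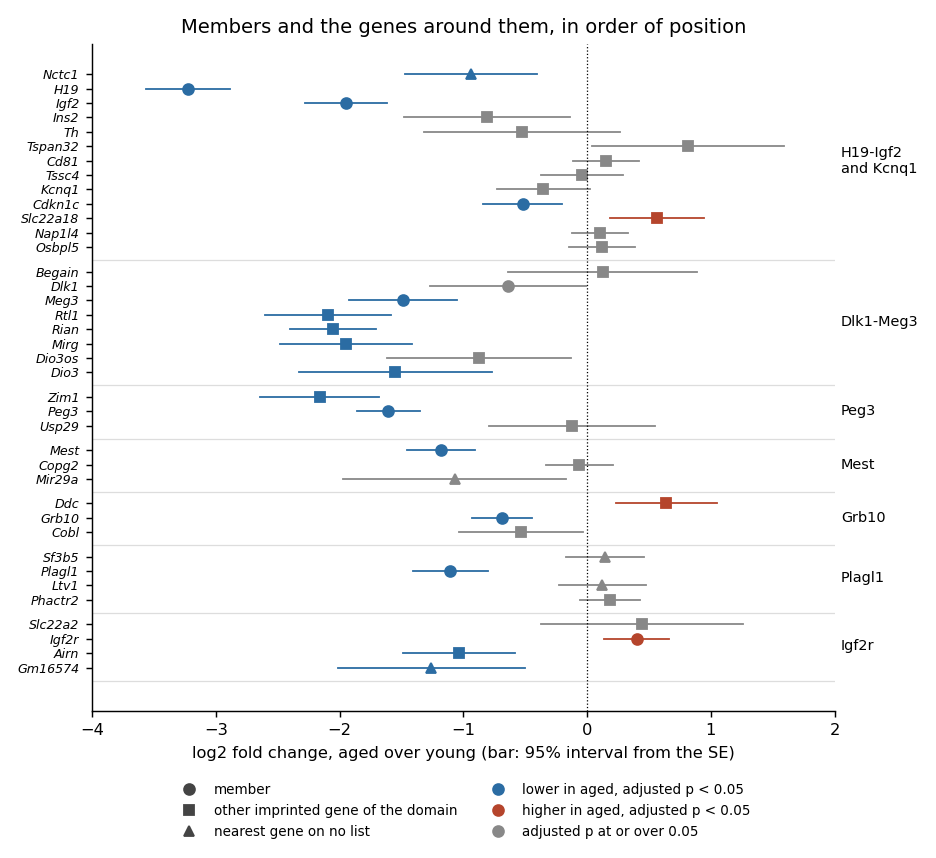
Log2 fold change, aged over young, of the members (circles), the other imprinted genes tested in each domain (squares) and the nearest genes on no list (triangles), in order of position within each domain, with bars for the 95% interval from the SE. In the Dlk1-Meg3 domain 5 genes are lower in aged mice, while squares in the other domains lie on both sides of 0, with Zim1 at -2.16 the lowest.

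Where the nearest gene on a side was on no imprinted list, it was compared as well, and 5 such genes are reported, 2 of them lower in aged mice. Nctc1, a non-coding transcript 16.9 kb from H19, had a log2 fold change of -0.94 with an SE of 0.27 (adjusted p 0.00517). Gm16574, a processed pseudogene 49.1 kb from Igf2r and inside Airn, had -1.26 (SE 0.39, adjusted p 0.00845). Sf3b5 (0.14, adjusted p 0.574) and Ltv1 (0.12, adjusted p 0.683), on either side of Plagl1, and Mir29a (-1.07, adjusted p 0.0803), beyond Mest, were not called.

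Imprinted genes outside these domains gave a mixed picture. Of 28 tested, 9 were lower in aged mice, 2 were higher and 17 were not called, with a median log2 fold change of -0.17. The strongest fall was that of Nespas, the antisense transcript of the Gnas domain, at -2.58 (SE 0.44, adjusted p 1.88e-07) and a base mean of only 15.5. Slc38a4 (-1.01), Peg10 (-0.93), Nnat (-0.82), Mkrn3 (-0.75), Ppp1r9a (-0.62), Ndn (-0.47), Zdbf2 (-0.46) and Nap1l5 (-0.40) were also lower on the log2 scale. Impact (0.51, adjusted p 0.000111), a regulator of the stress kinase Gcn2, and Dcn (0.51, adjusted p 0.00139), the matrix proteoglycan decorin, were higher. Over all lists of other imprinted genes, 51 of 66 were tested, 15 were lower, 4 were higher and the median was -0.13, against -1.14 for the members, which were chosen with their falls known. Whether each listed gene is imprinted in RPE/choroid was not measured, so these counts describe genes listed as imprinted.

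Genes that act with Igf2 and Igf2r were compared next. Of 8 tested, 5 were lower and 1 was higher in aged mice. The IGF2 mRNA-binding proteins, which bind the Igf2 transcript, were all lower, with log2 fold changes of -0.78 for Igf2bp1 (SE 0.16, adjusted p 3.77e-05), -0.94 for Igf2bp2 (SE 0.25, adjusted p 0.00213) and -1.08 for Igf2bp3 (SE 0.31, adjusted p 0.00430). Igf1, the related growth factor, had -0.47 (SE 0.13, adjusted p 0.00195). Of the receptor substrates, Irs1 was lower (-0.71, adjusted p 0.000354) and Irs2 higher (0.57, adjusted p 0.00686). The receptors through which Igf2 signals, Igf1r (-0.03, SE 0.14) and Insr (-0.05, SE 0.11), were not called, with adjusted p of 0.916 and 0.784.

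Among 9 tested genes of the imprint maintenance list, which set or maintain imprints, 3 were lower, 0 were higher by DESeq2 and 6 were not called. Zfp57, the zinc finger protein that guards methylated control regions, had a log2 fold change of -1.12 with an SE of 0.24 (adjusted p 4.35e-05). Uhrf1, which brings Dnmt1 to newly copied DNA, had -0.88 (SE 0.23, adjusted p 0.00169), and the methyltransferase gene Dnmt3a had -0.37 (SE 0.14, adjusted p 0.0403). The call of Dnmt3a was lost at an adjusted p under 0.01. At an unadjusted p under 0.05, 1 gene of this list, Dnmt1, was higher, at 0.32 (SE 0.13, adjusted p 0.0629).

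The tissue was checked against markers of the cell types that scraped RPE/choroid can hold, since in bulk RNA fewer cells of a type and less RNA per cell cannot be told apart. Each listed marker found in the table had a mean above 0. Of 8 fibroblast and fibrillar matrix genes tested, 5 were lower and 0 higher by DESeq2, also at an unadjusted p under 0.05, with a median log2 fold change of -1.67, and their summed group means went from 277272 to 83446 normalized counts. Those 5 were the fibrillar collagen genes, led in abundance by Col1a2 (-1.80, adjusted p 7.41e-31), whereas Pdgfra (0.21), Lum (0.26) and Fn1 (0.21) of the same list were not called. The collagen genes were thus lower alongside the 8 members that were lower, and the values of the remaining 3 genes of the list were above 0. The part of any change in cell types in the fall of the members was not tested.

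The other lists differed in how many of their genes were called. Among all genes tested, 9.92% were lower and 11.3% were higher in aged mice. Macrophage markers were higher in 5 of 6 tested, with summed group means of 9681 in young and 21643 in aged mice and a median log2 fold change of 1.64. Their calls ran from 0.37 for Csf1r, the most abundant, to 3.37 for Cd68. Of 5 chondrocyte and sclera markers, 4 were lower and Comp, the most abundant, was higher (0.97). Of 6 pericyte and smooth muscle markers, the contractile genes Myh11 (-1.19), Acta2 (-0.94) and Tagln (-0.84) were lower, and the most abundant, Rgs5, had 0.32 and was not called. Schwann cell markers were higher in 2 of 5 (S100b at 1.22). RPE markers were higher in 2 of 6 (Ttr at 0.08, not called). Endothelial markers were lower in 1 of 6 (Tek at -0.44), with a median of -0.16 and the most abundant, Kdr, at 0.14. Skeletal muscle markers were lower in 1 of 7 (Myh1 at -0.70), with 5 values below 0, a median of -0.59 and the most abundant, Myh4, at 0.35. Cell cycle genes were lower in 1 of 8 (Top2a at -0.56), with 7 values below 0, a median of -0.29 and the most abundant, Pcna, at 0.27. Of 6 melanocyte (Dct at -0.20) and 6 rod photoreceptor markers, 0 were called by DESeq2, and at an unadjusted p under 0.05 there were 1 and 0. Their part in the values of the members was likewise not tested.

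**Figure D5:**
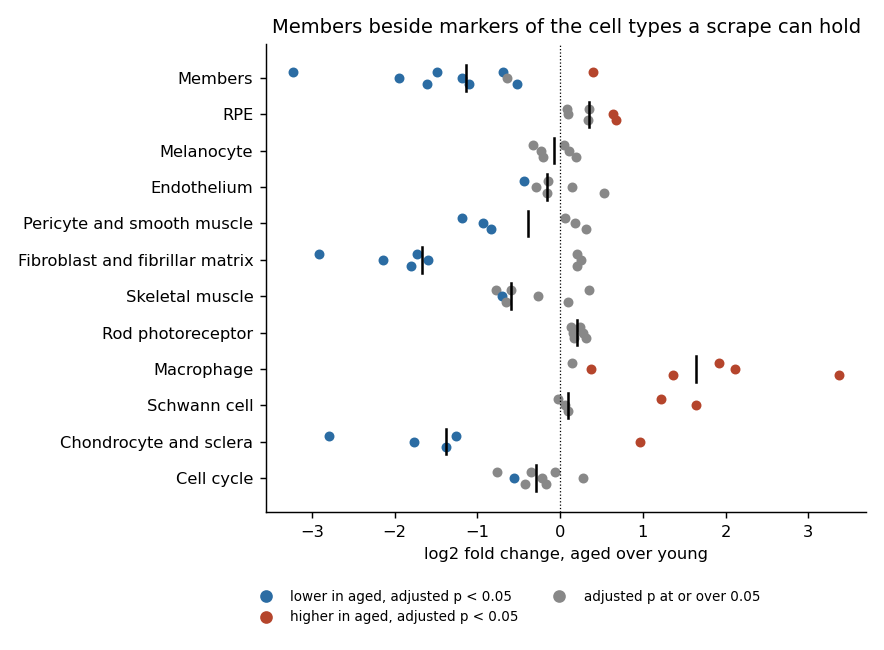
Log2 fold change, aged over young, of the members and of every tested marker of 11 cell type or cell cycle lists (1 point per gene, vertical bar at the list median). The fibrillar collagens and 4 chondrocyte and sclera markers lie in the range of the members, 4 macrophage markers lie to the right of Igf2r, and the tested RPE markers all lie above 0, 2 of them called.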

How the data were processed

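RNA of scraped RPE/choroid from 3 young and 3 aged mice was sequenced after ribosomal RNA depletion. By the study's methods, the authors used BBDuk for trimming, STAR for alignment to mouse transcripts (GRCm38), Sailfish for TPM abundances that were turned into counts scaled to the total, and DESeq2 to compare the ages, whose version is not given in the sources used here. The deposited base mean is a normalized signal averaged over all 6 libraries. Fold changes and their SE were deposited on the log2 scale, each with a Wald score, a p-value and an adjusted p-value from the authors. No counts per library were analysed here, so DESeq2 was not rerun, the planned count tests could not be used and the depth per library is unknown. In some alternatives, adjusted p-values were recomputed from the deposited p-values. After centring, they came from Wald p-values worked out with the deposited SE. The deposited sign was taken as young over aged, because 1849 called genes are positive and 2100 negative, and was reversed. The largest SE in the table is 0.46, and a row with a base mean as low as 0.18 (Mir483) has an SE of 0.17, which is what fold changes shrunken towards 0 give, although the sources do not state it.

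Intervals are the fold change plus or minus the normal quantile for 95% times the SE. Group means assume equal group sizes. The recomputed alternatives were an adjustment over every gene with a p-value, a base mean of at least 100 and centring. The others were an adjusted p under 0.01 and a log2 fold change of at least 1 in size. Before use, only the adjustment and the calculation of the Wald p-value were tested on simulated data. The base mean filter, the centring, the stricter cutoff and the minimum of fold change were not. Python 3.11.15 with pandas 2.3.3, numpy 2.4.6 and scipy 1.17.1 was used. Positions, exon lengths and words of 31 bases come from GENCODE M21, to which 28553 symbols matched. The members and lists were chosen with earlier results of these data known. Named are all members, each listed imprinted, IGF partner or imprint maintenance gene with an adjusted p under 0.05 (the most abundant of a list where there is none), the nearest tested gene on each side of a member and the most abundant marker of each list. Some genes that the rule names are not reported here. Other genes were named after their values were seen. The study describes the 3 samples of a group as independent biological replicates.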

Additional observations from a re-analysis of the deposited data

How the results depend on the processing

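No paired analysis was possible because there are no values for single libraries, so leaving out each replicate and the replicate block were not run. The count of called members was 9 as reported, 9 with the adjustment over every gene with a p-value, 9 with a base mean of at least 100, 8 after centring, 8 at an adjusted p under 0.01 and 6 with a log2 fold change of at least 1 in size (the fold change minimum). No member changed direction, and the member median lay between -1.21 and -1.14. Igf2r was lost after centring, at an adjusted p under 0.01 and under the fold change minimum, and Grb10 and Cdkn1c under the fold change minimum only. The 19 other imprinted genes called became 12 with a base mean of at least 100 and 8 with the fold change minimum. The 9 called IGF partner and imprint maintenance genes became 8 with the adjustment over every gene with a p-value and 8 at an adjusted p under 0.01. With the fold change minimum they became 2, and the 25 called markers became 16. These alternatives test a different number of genes or are stricter by construction. Centring moved the split over all genes from 1849 lower and 2100 higher to 2289 lower and 1655 higher. Over all genes, the 3949 called became 2520 at an adjusted p under 0.01 and 1542 with the fold change minimum. The depth of each library is unknown here, and the SE of Dlk1, 0.32, limits what can be said of it most among the members.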

Other observations

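The Dlk1-Meg3 domain also holds many microRNA genes. Between the start of Dlk1 and the end of Dio3, a stretch of 828 kb on chromosome 12, the table has 48 microRNA rows. Of these, 11 were listed at 0 and 37 had a fold change, 33 of them below 0 and 4 above, with a median log2 fold change of -0.42. Only Mir382 had an adjusted p, 0.0428, with a log2 fold change of -1.21 (SE 0.46), and at an unadjusted p under 0.05 there were 7 rows, each below 0. The highest base mean among them was 7.45, and whether their reads come from the long transcripts Rian and Mirg was not tested. Among all 18636 genes tested, 9414 had a value below 0, but of these microRNA rows only Mir382 was tested. The share below 0 among other rows of like abundance was not worked out, and neighbouring rows are not independent.

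Sorted by the parental chromosome from which they are known to be expressed, a sorting made after the values were seen, 4 of 5 paternally expressed members were lower (median log2 fold change -1.18), and 4 of 5 maternally expressed members were lower (median -0.69). Of the other imprinted genes tested with a known parental origin, 11 of 20 paternally expressed genes were lower and 1 was higher (median -0.46), whereas 4 of 16 maternally expressed genes were lower and 2 were higher (median -0.00338). The difference between both origins was not tested, and the data hold no reads by allele.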
